A study of Mus musculus with 9 samples.

Results

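The 10 genes described here make up the calcium uptake and calcium storage machinery of the muscle fibre, namely the SERCA pumps Atp2a1, Atp2a2 and Atp2a3, the small membrane proteins that act on them, Sln, Pln and Mrln, and the calcium-binding proteins Casq1, Casq2, Srl and Pvalb. They were chosen by name, and all 10 were found among the 55471 genes of the table by their Ensembl identifiers. RNA was sequenced from the gastrocnemius, a calf muscle, of mice at postnatal day 0 to 1 whose strain background the labels give as C57BL/6. There were 5 Shank3Δ11(-/-) mice, KO1 to KO5, which carry 2 alleles without exon 11 of the postsynaptic scaffold gene Shank3, and 4 Shank3(+/+) mice, WT1 to WT4, with 1 library per mouse. The genotypes were compared in 7 mice, the 4 Shank3(+/+) mice and KO1, KO3 and KO5, because the study left KO2 and KO4 out for their number of reads, and the comparison was repeated with all 9 mice. The RNA is that of muscle tissue and not of sorted cells, and in such bulk samples fewer cells of a type and less RNA per cell cannot be told apart.

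Muscle relaxes when SERCA pumps return calcium from the cytosol to the sarcoplasmic reticulum, the internal calcium store of the fibre. Sarcolipin, phospholamban and myoregulin are short proteins that lie beside the pump in the membrane and lower its activity. Inside the reticulum calsequestrin and sarcalumenin bind the stored calcium, and in the cytosol of fast fibres parvalbumin takes up calcium before the pump does. Several of these proteins exist in a form of fast fibres and a form of slow, heart or developing muscle. Atp2a1 and Casq1 are the fast forms, whereas Atp2a2 and Casq2 are the forms of heart and slow muscle, and Casq2 is also made in fetal and newborn skeletal muscle.

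Library totals ranged from 26444372 counts in KO5 to 40471957 in KO4, with a median of 31435732, so KO4, which was left out, was the deepest library. Levels are given as CPM, counts scaled to a common library size with TMM factors, and a level compared between genes is given per kb of exon. Shank3 itself was counted at 25.8 to 35.1 CPM in the Shank3Δ11(-/-) mice and 32.5 to 38.5 CPM in Shank3(+/+), a log2 fold change of -0.12 (edgeR, adjusted p = 1.00). Since reads of all exons were summed, this level says nothing on the loss of exon 11. The 10 skeletal muscle markers, such as Ckm and Acta1, summed to 35570 to 41070 CPM over the mice, as is usual for the labelled tissue. Xist, which is transcribed from the inactive X chromosome, was at 619 to 926 CPM in a group of 4 mice (WT3, WT4, KO3 and KO5) and did not exceed 3.23 CPM in the others, so both genotypes held mice of both kinds. The 7 adipocyte markers summed to 1129 CPM in KO5 and 186 to 403 CPM in the other mice. The 5 Schwann cell markers summed to 689.6 CPM in KO5 and 297 to 410 CPM elsewhere, the 5 cartilage markers to 223 CPM in KO4 and 32.2 to 70.7 CPM elsewhere, and the 6 erythroid markers to 4365 CPM in KO1 and 918 to 1647 CPM elsewhere.

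The 250 bases before the annotated start are shown for Casq1 and Pvalb, the members that varied least and most between the mice, and for Casq2, the other form of calsequestrin. The windows are from RefSeq on GRCm38.p6, given 5′ to 3′ on the strand of the gene, and capitals mark E-boxes, the motif CANNTG (identical on both strands) that myogenic factors such as MyoD can bind. Casq1 is shown at chr1:172219896-172220145 on the minus strand and Casq2 at chr3:102086165-102086414 on the plus strand. Pvalb has 2 annotated starts, shown at chr15:78206401-78206650 and chr15:78204238-78204487 on the minus strand.
Casq1: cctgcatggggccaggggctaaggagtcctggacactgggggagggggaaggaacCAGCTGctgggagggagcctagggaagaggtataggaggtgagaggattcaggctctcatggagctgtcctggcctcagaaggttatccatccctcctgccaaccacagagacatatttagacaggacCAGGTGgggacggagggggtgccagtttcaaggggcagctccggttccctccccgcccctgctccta
Casq2: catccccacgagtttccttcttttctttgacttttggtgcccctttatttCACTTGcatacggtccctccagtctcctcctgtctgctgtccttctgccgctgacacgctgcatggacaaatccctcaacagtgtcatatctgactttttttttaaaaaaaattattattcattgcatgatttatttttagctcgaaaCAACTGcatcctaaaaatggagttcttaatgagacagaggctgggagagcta
Pvalb, start 1: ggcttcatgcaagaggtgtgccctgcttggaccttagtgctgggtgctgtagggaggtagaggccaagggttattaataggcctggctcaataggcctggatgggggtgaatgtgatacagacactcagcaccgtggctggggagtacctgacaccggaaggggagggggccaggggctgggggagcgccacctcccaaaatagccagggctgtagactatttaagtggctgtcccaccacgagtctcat
Pvalb, start 2: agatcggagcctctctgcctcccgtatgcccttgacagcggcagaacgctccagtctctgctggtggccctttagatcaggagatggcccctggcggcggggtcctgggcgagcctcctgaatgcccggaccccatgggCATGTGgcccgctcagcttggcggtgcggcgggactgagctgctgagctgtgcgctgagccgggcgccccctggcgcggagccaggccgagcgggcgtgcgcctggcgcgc
Casq1 held 2 E-boxes, CAGCTG and CAGGTG, and Casq2 held 2, CACTTG and CAACTG. The window of the upstream Pvalb start held 0, and that of the other start held 1, CATGTG. Of 32851 such windows of mouse genes, 66.2% held at least 1 CANNTG and 31.8% held at least 2, and CAGCTG was in 13.0%. TATAAA, searched on both strands, was in 0 of the 4 windows and in 12.4% of all windows. These matches describe letters in a window and do not show binding.

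Atp2a1, the gene of the fast-fibre pump, gave by far the most SERCA RNA of the newborn muscle. It has 2 annotated transcripts, which counts per gene do not separate, so its splice forms were not compared. In Shank3(+/+) mice Atp2a1 (ENSMUSG00000030730, chr7:126445858-126463108 on GRCm38) was at 663 ± 69.0 CPM per kb (SD, n = 4), Atp2a2 (ENSMUSG00000029467, chr5:122453513-122502225) at 77.7 ± 13.7 and Atp2a3 (ENSMUSG00000020788, chr11:72961169-72993044), a pump of non-muscle cells such as blood and endothelium, at 3.70 ± 0.934. Atp2a1 made up 88.0% to 93.0% of the 3 pumps per kb over the 9 mice, Atp2a2 6.39% to 11.7% and Atp2a3 0.348% to 0.685%. The ratio of Atp2a1 to Atp2a2 per kb was 9.36 in KO1, 10.35 in KO2, 8.91 in KO3, 9.83 in KO4 and 14.6 in KO5, and 8.91, 8.85, 7.54 and 9.17 in WT1 to WT4. KO5 stood above the other 8 mice, KO1, KO2 and KO4 lay just above the Shank3(+/+) range and KO3 lay within it. The mean log2 ratio was 0.31 higher in the 3 Shank3Δ11(-/-) mice (exact 2-sided permutation test, p = 0.0571, adjusted p = 0.257 over 6 ratios) and 0.28 higher in all 5 (exact p = 0.0635, adjusted p = 0.219). Without KO5 the difference of the 7 mice was 0.09. The smallest p that 3 against 4 mice allow is 0.0286, and for 5 against 4 mice it is 0.00794. Atp2a1 shares 763 of its exon bases, 21.9%, with exons of Rabep2 on the other strand, and whether the counting used strand is not given in the sources used here.

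**Figure D1:**
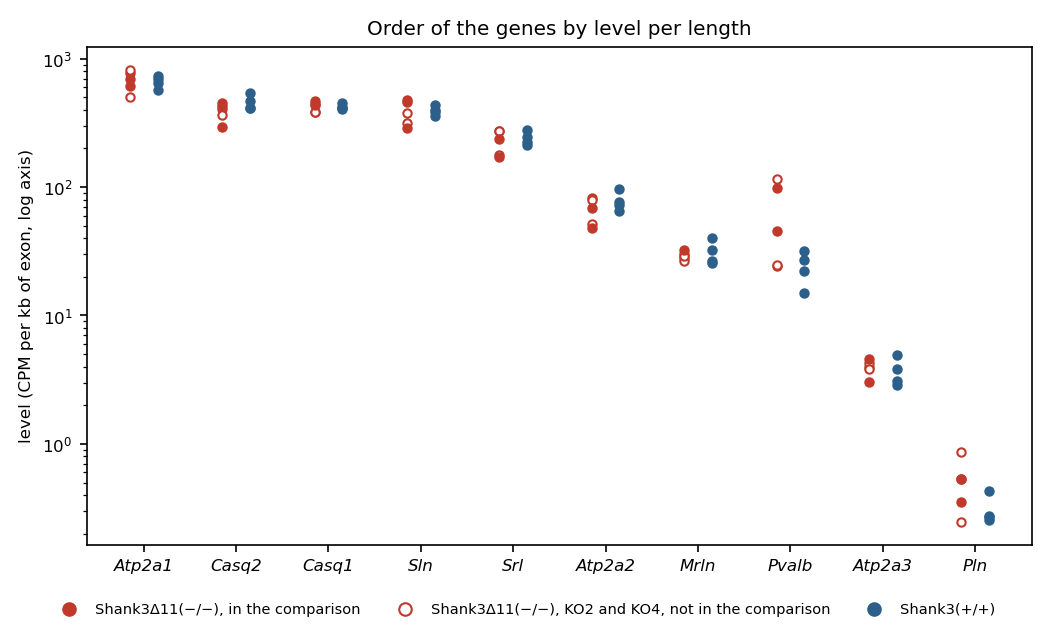
Level of the 10 genes in each of the 9 mice, in CPM per kb of exon on a log axis, ordered by the mean of the 4 Shank3(+/+) mice. Atp2a1 leads at 663 CPM per kb and Pln is last at 0.307, and the points of the genotypes overlap for every gene.

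Calsequestrin showed no such imbalance between its forms. Casq2 (ENSMUSG00000027861, chr3:102086415-102146514) was at 459 ± 59.7 CPM per kb (SD, n = 4) in Shank3(+/+) and Casq1 (ENSMUSG00000007122, chr1:172209894-172219868) at 422 ± 20.2, with ranges that overlapped over the 9 mice. Casq1 shares 156 exon bases, 8% of its own, with the antisense gene Gm17224. Casq1 held 42.7% to 60.0% of the sum. The ratio of Casq1 to Casq2 was 1.05, 1.10, 0.895, 1.05 and 1.498 in KO1 to KO5 and 0.989, 1.09, 0.745 and 0.908 in WT1 to WT4. KO5 was again the highest mouse and WT3 the lowest, and the other mice of both genotypes were mixed between them. The difference of 0.28 in mean log2 ratio between 3 and 4 mice did not pass (exact permutation test, p = 0.371, adjusted p = 0.446), and it was 0.07 without KO5 and 0.44 without KO3. At birth the SERCA RNA was mostly that of the fast form, and the calsequestrin RNA was divided about evenly between the fast and the heart or slow form. These are shares of RNA and not of protein. Of 8 heart markers, 4 passed the filter on low counts, and Nppa, Nppb, Myl7 and Nkx2-5 were at most 0.339 CPM in every mouse. The heart marker list summed to 145 to 310 CPM, nearly all from Myh6 (138 to 300 CPM). Of the tested ones, Tnni3 was at only 1.66 to 4.02 CPM, Hand2 at 1.82 to 4.61 CPM and Gata4 at 0.126 to 0.564 CPM. All 4 tested heart markers had a negative log2 fold change in the 7 mice, with a median of -0.39. That of Myh6, the alpha myosin heavy chain of heart, was -0.64 (standard error 0.22, edgeR p = 0.0141, adjusted p = 1.00, exact permutation test p = 0.0857), -0.49 without KO5, -0.497 without KO3, -0.99 without KO1 (adjusted p = 0.197) and -0.41 in all 9 mice. The unadjusted p of Myh6 was above 0.05 without KO5, without KO3 and in all 9 mice.

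Among the small regulators, sarcolipin was the predominant transcript. Sln (ENSMUSG00000042045, chr9:53850164-53854560) was at 396 ± 34.3 CPM per kb (SD, n = 4) in Shank3(+/+), Mrln (ENSMUSG00000019933, chr10:70204664-70219711) at 31.2 ± 6.77 and Pln (ENSMUSG00000038583, chr10:53337667-53345987) at 0.307 ± 0.0812. Sln made up 89.7% to 94.1% of the 3 per kb, Mrln 5.80% to 10.2% and Pln 0.0565% to 0.212%. With the longest transcript in place of all exons as the length, Mrln was at 81.7 CPM per kb in Shank3(+/+), and the shares were 77.0% to 86.0% for Sln, 13.9% to 22.8% for Mrln and 0.0588% to 0.224% for Pln. The ratio of Sln to Pln ranged from 437 in KO4 to 1620 in WT4, and that of Mrln to Pln from 34.1 in KO4 to 149 in WT4. Both ratios were lower on average in Shank3Δ11(-/-), by a log2 difference of -0.62 (exact permutation test, p = 0.143, adjusted p = 0.286) and -0.66 (p = 0.0857, adjusted p = 0.257), and the groups overlapped in each. The first of these differences was -0.29 without KO5 and -0.92 without KO1. The ratio of Sln to Atp2a1, inhibitor against pump, ranged from 0.383 in KO2 to 0.787 in KO3, and the mean log2 ratio differed by -0.05 (exact permutation test, p = 0.857). Both extremes were Shank3Δ11(-/-) mice, with the 4 Shank3(+/+) mice between 0.549 and 0.671.

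In the order of levels per kb, Atp2a1, Casq2, Casq1 and Sln followed each other with overlapping ranges over the 9 mice. Srl (ENSMUSG00000022519, chr16:4480216-4541816), at 240 ± 27.5 CPM per kb in Shank3(+/+), lay below all of them and above Atp2a2 with no overlap. Below Atp2a2 came Mrln and then Pvalb (ENSMUSG00000005716, chr15:78191114-78206400) at 23.9 ± 7.09, whose range over the 9 mice reached 114.7 CPM per kb and took in those of Mrln and Atp2a2. Atp2a3 and Pln lay separately at the bottom of the order. The longest transcript as length gave the same order of the 10 means. In CPM Atp2a1 was at percentile 99.8 of the genes tested and Pln at percentile 19.2, and Pln rests on 20 to 90 counts per mouse and Atp2a1 on 63573 to 86142.

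**Figure D2:**
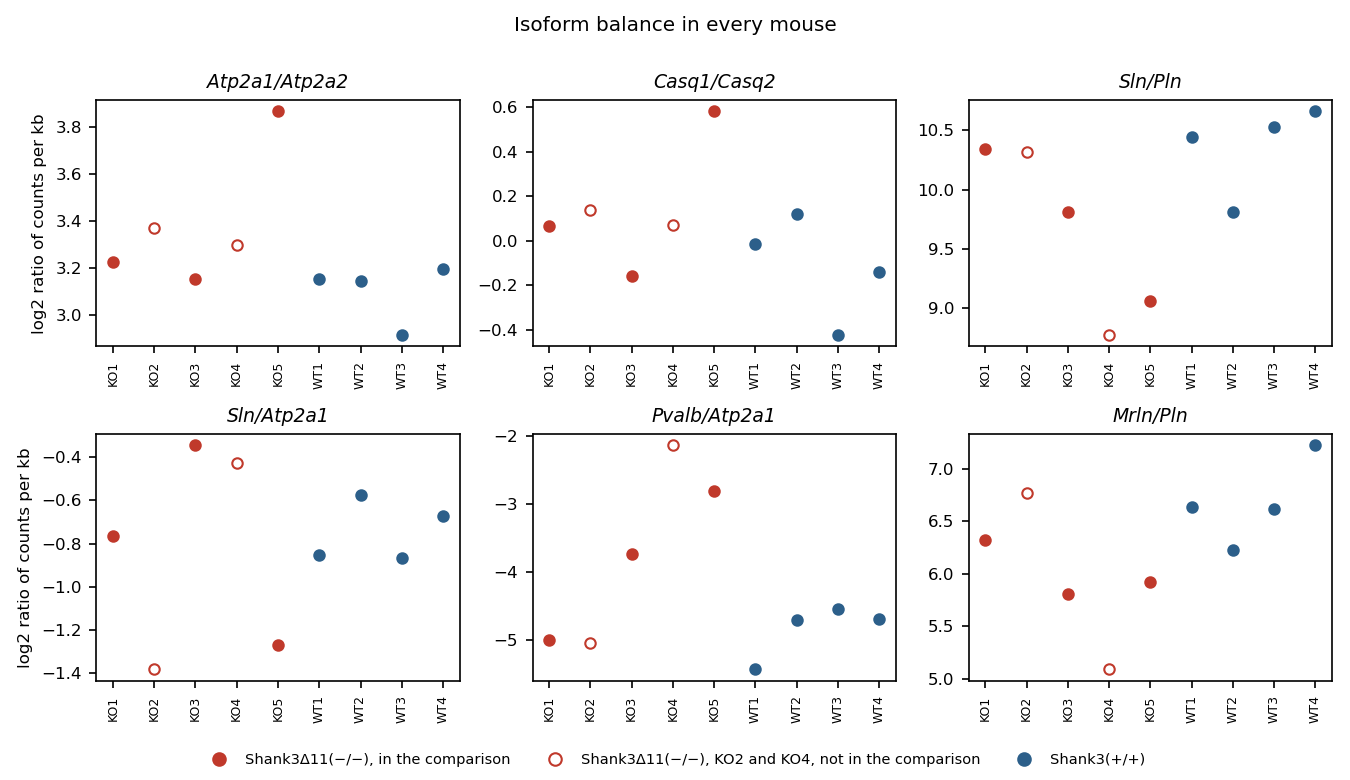
Log2 ratio of counts per kb of exon for 6 pairs of genes in each of the 9 mice, with Shank3Δ11(-/-) mice in red (open points for KO2 and KO4) and Shank3(+/+) mice in blue. KO5 has the highest Atp2a1 to Atp2a2 ratio at 14.6 (3.87 on the log2 axis) and KO4 the highest Pvalb to Atp2a1 ratio at 0.227, and in no panel do the genotypes separate.

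Between the genotypes, 6 of the 10 genes had a positive and 4 a negative log2 fold change in the 7 mice, with a median of 0.03 beside -0.0082 over all 21809 genes tested. With edgeR's quasi-likelihood test 1 gene, Pvalb, had an unadjusted p below 0.05, where 2.08% of all genes did (1.16% higher and 0.917% lower). None of the 10 was called at p below 0.05 with a Benjamini-Hochberg FDR below 25%, the criterion of the study, and neither was any of the 21809 genes (0.0%). The numbers of genes over the table with an unadjusted p below 0.05 were 453 with edgeR, 393 with DESeq2 and 426 with limma-voom, and by the full criterion DESeq2 called 6 genes and limma-voom 0. In all 9 mice 5 genes were higher and 5 lower, Pvalb again was the 1 gene with p below 0.05 (2.03% of all genes, 1.16% higher and 0.874% lower), and 0 of the 10 were called (0.0% of all genes). In 0 of the 10 genes did the genotypes separate without overlap, in 7 or in 9 mice, while 2.84% of all genes did so in 7 mice (1.54% with Shank3Δ11(-/-) above and 1.3% below) and 0.686% in 9 mice (0.322% above and 0.363% below).

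Pvalb was the member that differed most between mice. Parvalbumin is the cytosolic calcium buffer of fast fibres and rises as these fibres mature after birth. It was at 25.4 CPM in KO1, 25.9 in KO2, 47.7 in KO3, 119 in KO4 and 103 in KO5, and at 15.6, 22.9, 32.8 and 28.1 CPM in WT1 to WT4. KO3, KO4 and KO5 lay above every Shank3(+/+) mouse, whereas KO1 and KO2 lay within their range, so the groups overlapped. The mean was 58.6 ± 39.9 CPM (SD, n = 3) against 24.9 ± 7.38 (SD, n = 4), a fitted log2 fold change of 1.23 (standard error 0.47, 95% interval 0.13 to 2.33, edgeR p = 0.0331, adjusted p = 1.00, exact permutation test p = 0.114). With all 9 mice it was 1.37 (standard error 0.52, edgeR p = 0.0273, adjusted p = 1.00, exact permutation test p = 0.111). When each of the 7 mice was left out in turn, the unadjusted edgeR p rose above 0.05 in 5 of 7 fits. These were the fits without KO5, where the log2 fold change was 0.54 (standard error 0.32), without KO3 (1.36), WT1 (1.06), WT2 (1.19) and WT4 (1.298), each with an adjusted p of 1.00. Without KO1 it was 1.59 and without WT3 1.40, both with an unadjusted p below 0.05 (edgeR, adjusted p = 0.929 and adjusted p = 1.00). Of all 9 mice, the unadjusted p rose above 0.05 in 4 of 9 fits, those without KO4 (1.01), KO5 (1.14), WT1 (1.202) and WT2 (1.33). The standard deviation of Pvalb in log2 CPM over the 9 mice was at percentile 99.0 of the genes tested, with a highest level 7.66 times the lowest, and within the 4 Shank3(+/+) mice the highest was 2.11 times the lowest. Among mice with high Xist, KO3 and KO5 averaged 75.3 CPM and WT3 and WT4 30.5 CPM, a log2 ratio of 1.31. Among those with low Xist, KO1, KO2 and KO4 averaged 56.9 CPM and WT1 and WT2 19.3 CPM, a log2 ratio of 1.56, and the difference between these ratios was within the error (edgeR interaction -0.26, standard error 1.09, adjusted p = 1.00). KO5 also had the highest adipocyte and Schwann cell marker sums and KO4 the highest cartilage marker sum, and their part in the result was not tested. Set against the pump, the ratio of Pvalb to Atp2a1 was 0.0303 to 0.227 in Shank3Δ11(-/-) and 0.0231 to 0.0431 in Shank3(+/+), with a difference in mean log2 ratio of 0.99 (exact permutation test, p = 0.2, adjusted p = 0.3), which was 0.48 without KO5 and 1.57 without KO1.

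**Figure D3:**
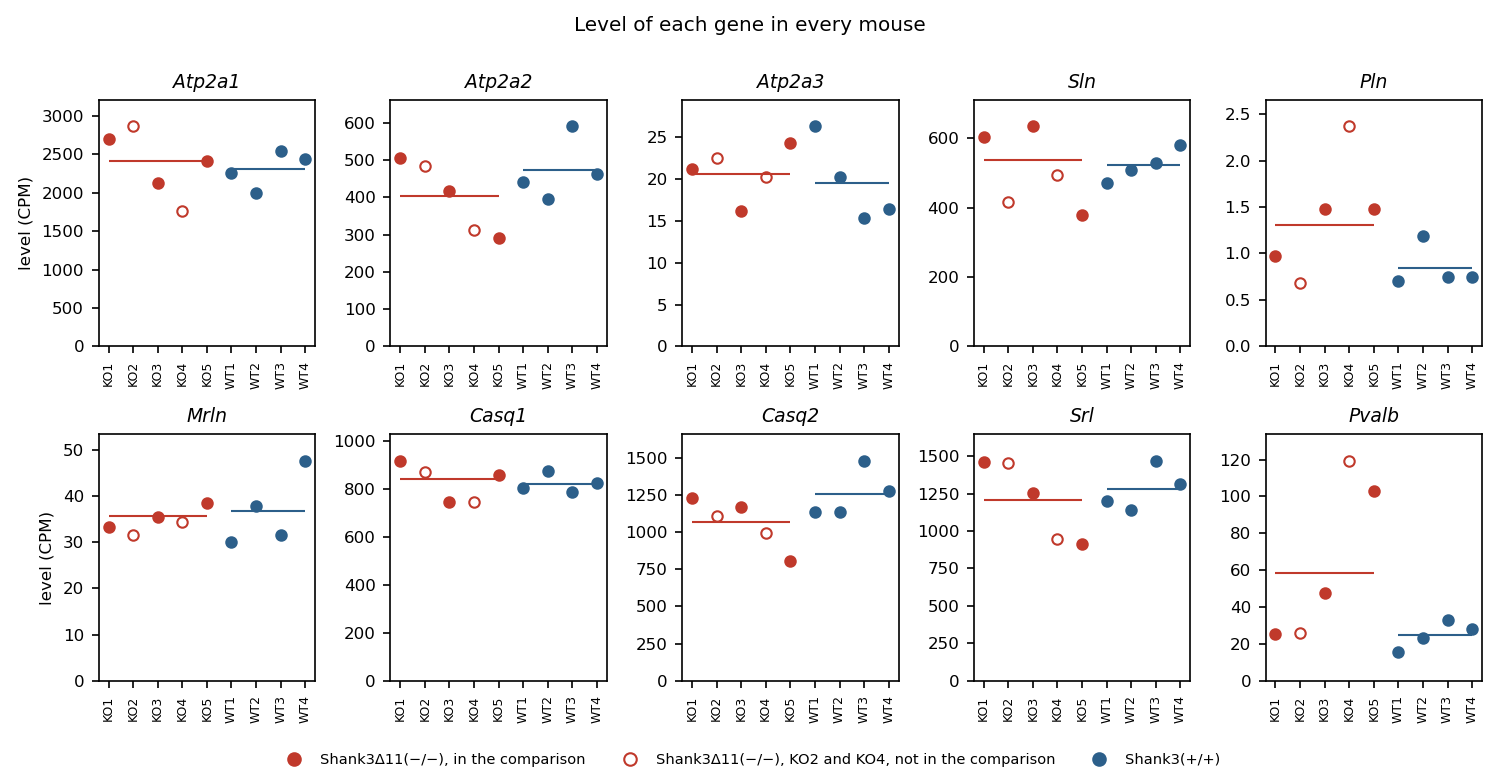
Level in CPM of each of the 10 genes in each of the 9 mice, with lines at the mean of KO1, KO3 and KO5 (red) and of WT1 to WT4 (blue), and with KO2 and KO4 as open points. Pvalb is at 47.7 to 119 CPM in KO3, KO4 and KO5 and at most 32.8 CPM in the Shank3(+/+) mice, whereas Casq1 stays between 746 and 918 CPM in all 9 mice.

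Phospholamban, the SERCA inhibitor of heart and slow fibres, was counted on few reads. Pln had 31, 20, 47, 90 and 39 counts in KO1 to KO5 and 23, 40, 22 and 23 counts in WT1 to WT4, which is 0.971, 0.680, 1.48, 2.37 and 1.48 CPM against 0.708, 1.18, 0.751 and 0.749 CPM. KO3, KO4 and KO5 were again above every Shank3(+/+) mouse, while KO2 was the lowest of the 9 and KO1 lay within the Shank3(+/+) range. The log2 fold change was 0.61 in the 7 mice (standard error 0.29, 95% interval -0.02 to 1.25, edgeR p = 0.0579, exact permutation test p = 0.0857) and 0.72 in 9 (edgeR p = 0.0536, exact permutation test p = 0.135), with an adjusted p of 1.00 in each. Without WT2 it was 0.82 and without KO1 0.79, both with an unadjusted edgeR p below 0.05 (adjusted p = 1.00), as was that of 3 of 9 fits leaving out 1 of all 9 mice, where it was 0.43 without KO4. Pln shares 1644 of its exon bases, 59.6%, with Gm47644 and 5.11% with Cep85l, both on the other strand. Gm47644 had 30 to 123 counts per mouse, the highest in KO4 and the lowest in KO2 as for Pln, so the reads of the locus cannot be told apart without strand.

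The slow and heart forms Atp2a2 and Casq2 had negative fold changes within the error. Atp2a2, the SERCA pump of slow fibres and heart, was at 504, 483, 417, 312 and 289.9 CPM in KO1 to KO5 and 442, 395, 590.0 and 464 CPM in WT1 to WT4. KO4 and KO5 were below every Shank3(+/+) mouse and the other 3 lay within the range. The log2 fold change was -0.24 in the 7 mice (standard error 0.19, 95% interval -0.66 to 0.18, edgeR p = 0.241, exact permutation test p = 0.4) and -0.05 without KO5. Casq2 was at 1228, 1108, 1171, 995.5 and 802 CPM in KO1 to KO5 and 1137, 1132, 1480 and 1274 CPM in WT1 to WT4. KO2, KO4 and KO5 lay below every Shank3(+/+) mouse. The log2 fold change was -0.24 (standard error 0.17, 95% interval -0.61 to 0.12, edgeR p = 0.169) in the 7 mice, -0.08 without KO5 and -0.24 in 9 mice (p = 0.0942, exact permutation test p = 0.135). Srl, the glycoprotein sarcalumenin of the reticulum lumen, was lowest in the same mice, at 947 CPM in KO4 and 916 CPM in KO5, against 1138 to 1470 CPM in the other 7, and its log2 fold change was -0.09 (edgeR p = 0.588, exact permutation test p = 0.657). Among mice with high Xist the log2 ratio of mean Atp2a2 was -0.58, and among mice with low Xist 0.05, a difference of -0.63 (edgeR interaction, standard error 0.33, adjusted p = 0.98). For Casq2 these ratios were -0.48 and -0.03, and for Srl -0.36 and 0.14 (adjusted p = 0.98 for each interaction).

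The remaining 5 genes differed by under 0.1 on the log2 scale. Atp2a1 was at 2699, 2858, 2124, 1754 and 2415 CPM in KO1 to KO5 and 2250, 1996, 2545 and 2433 CPM in WT1 to WT4, with KO2 the highest and KO4 the lowest of the 9 mice. Its log2 fold change of 0.06 had a 95% interval that spans 0.848-fold to 1.28-fold (edgeR p = 0.680, exact permutation test p = 0.629). Casq1 was the steadiest of the 10, at 918, 871, 747, 746 and 857 CPM in KO1 to KO5 and 802, 877, 786 and 825 CPM in WT1 to WT4. Its standard deviation over the mice was at percentile 6.57 of the genes tested, and its log2 fold change of 0.02 had an interval of 0.854-fold to 1.21-fold (edgeR p = 0.841, exact permutation test p = 0.771). Sln ranged from 379 CPM in KO5 to 634 CPM in KO3, and from 472 to 579 CPM in Shank3(+/+), with a log2 fold change of 0.04 in 7 mice and -0.05 in 9 (exact permutation test, p = 0.943 and p = 0.690). Mrln was at 31.6 to 38.5 CPM in Shank3Δ11(-/-) and 30.2 to 47.7 CPM in Shank3(+/+), with a log2 fold change of -0.05 (edgeR p = 0.746, exact permutation test p = 0.914). Atp2a3 was at 16.2 to 24.3 CPM against 15.3 to 26.2 CPM, with a log2 fold change of 0.06 (edgeR p = 0.756, exact permutation test p = 0.771). A p above the threshold does not show equal levels, and the intervals give the sizes of difference that these 7 mice leave possible.

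**Figure D4:**
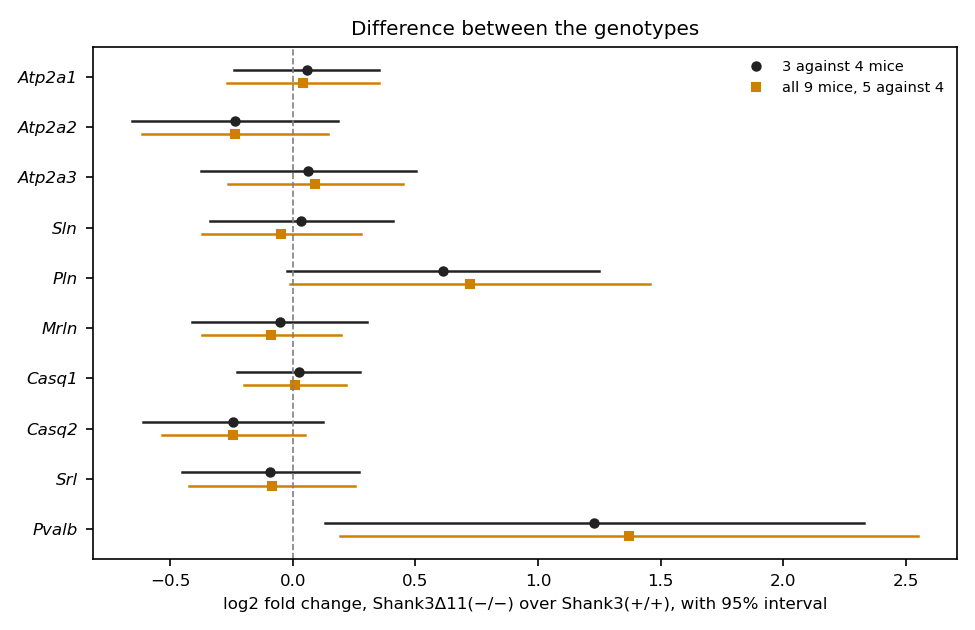
Log2 fold change of Shank3Δ11(-/-) over Shank3(+/+) for each of the 10 genes with its 95% interval, from 3 against 4 mice (black circles) and from all 9 mice (orange squares). The interval of Pvalb lies above 0 in both fits (1.23 and 1.37, each with an adjusted p of 1.00), and those of the other 9 genes span 0.

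Genes with related roles, taken from lists written for this purpose, gave few further differences. None of the 13 tested genes of other SERCA regulators (8 higher, 5 lower, median log2 fold change 0.04), of 15 further calcium-binding proteins of the reticulum (9 and 6, median 0.01), of 9 cytosolic calcium buffers (5 and 4, median 0.0013) and of 9 other calcium pumps and exchangers (6 and 3, median 0.03) had an edgeR p below 0.05, where 2.08% of all genes did. Of 11 fast fibre markers 7 were higher and 4 lower (median 0.08, and -0.0078 without KO5), and Actn3, the Z-disc actinin of fast fibres, had a log2 fold change of 0.62 (edgeR p = 0.0413, adjusted p = 1.00, exact permutation test p = 0.143). All 9 slow fibre markers had a negative log2 fold change in the 7 mice, with a median of -0.41, which was -0.26 without KO5 and -0.28 in all 9 mice. Of these, 4 had an unadjusted p below 0.05, among them the light chains Myl3 (-0.41) and Myl6b (-0.53) and the slow troponin Tnnc1 (-0.43), each with an adjusted p of 1.00 and exact permutation p-values of 0.0571, 0.143 and 0.0571. The slow markers with such a p were 0 without KO5 or WT4 and up to 7, without KO3, where 1 of them passed the full criterion. Some marker lists of other cell types lay to one side in the fit of the 7 mice and others were mixed. The mixed ones were smooth muscle (3 higher, 3 lower), leukocyte (4 and 1) and platelet and megakaryocyte markers (3 and 1). Of 10 skeletal muscle markers 7 were higher and 3 lower. Among them only Myod1, at -0.41, had an unadjusted p below 0.05 (edgeR p = 0.0109, adjusted p = 0.9996, exact permutation test p = 0.0286). All 4 tested adipocyte markers were higher, each with an unadjusted p below 0.05 (2 of 4 without KO5, 0 without WT1 or WT4), and the 7 listed summed to 290 to 1129 CPM in the 3 Shank3Δ11(-/-) mice and 211 to 289 CPM in Shank3(+/+). All 5 Schwann cell markers were higher, 3 of them with such a p (0 without KO5), with sums of 383 to 689.6 CPM and 297 to 402 CPM. The 4 heart markers were lower, 1 with such a p, and summed to 145 to 258 CPM and 224 to 310 CPM. The 6 erythroid and 6 endothelium markers were all higher and the 4 tested cartilage and 5 epidermis markers all lower, with no unadjusted p below 0.05. These directions depended on the mice. In all 9 mice the 4 cartilage markers were all higher, and 5 endothelium markers were higher and 1 lower. Without KO1 4 erythroid markers were higher and 2 lower, and without WT4 3 epidermis markers were higher and 2 lower. The part of these lists in the values of the slow and heart forms was not tested. Of 8 developmental fibre markers 7 were lower (median -0.23, and -0.08 without KO5), and Tnnt2, the troponin T of heart and embryonic muscle, had a log2 fold change of -0.28 (edgeR p = 0.0358, adjusted p = 1.00, exact permutation test p = 0.0286). The related-role lists and the fast, slow and developmental fibre lists together, without those of other cell types, held 74 tested genes. Of these 6 had p below 0.05 in the 7 mice, 0 without KO5, 12 without KO3 and 3 in all 9 mice. The shares of all genes with such a p were 2.08%, 1.01%, 3.57% and 2.03%. With the replicate number as a block, although the numbers were not taken as pairs, the median of the slow fibre markers was -0.12 and that of the developmental ones 0.03. That fit rests on KO1 with WT1 and KO3 with WT3, as KO5, WT2 and WT4 have no mouse of the same number among the 7. KO5 had the lowest sum of slow fibre markers, 2266 CPM, against 2845 to 4121 CPM in the other 8 mice. The slow sum of KO4, 3839 CPM, lay within the Shank3(+/+) range of 3239 to 4121 CPM, although Atp2a2 and Srl were low in both KO4 and KO5.

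**Figure D5:**
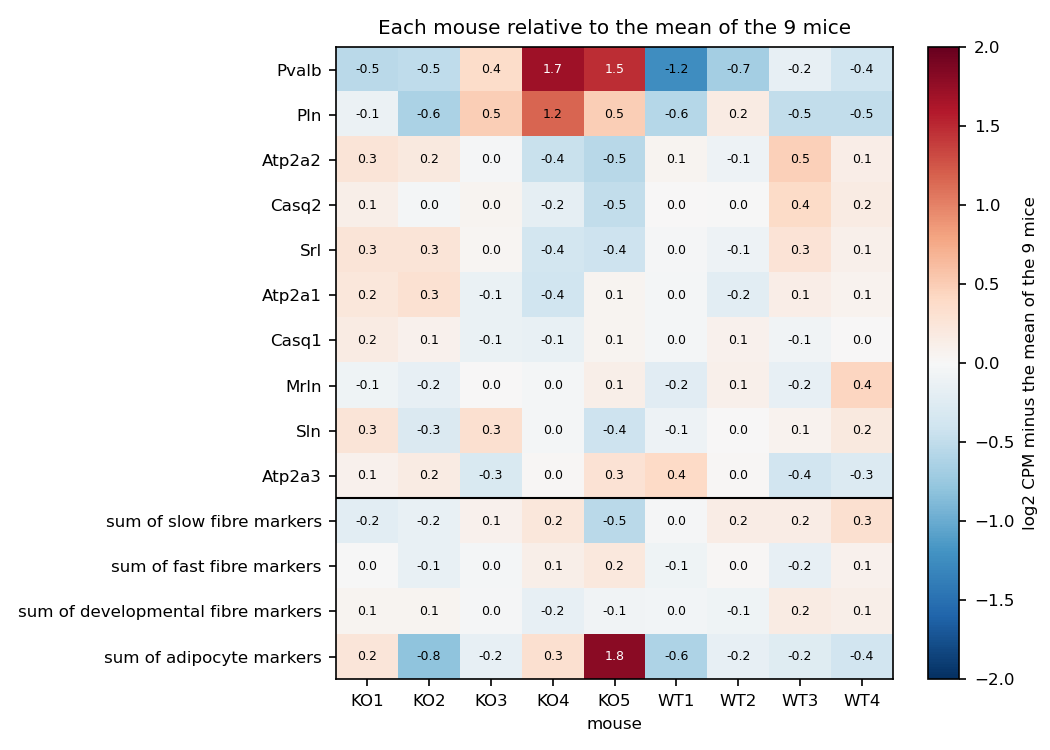
Log2 CPM of each gene, and of the summed markers of fast, slow and developmental fibres and of adipocytes, minus the mean of the 9 mice, with 1 column per mouse. Pvalb and Pln are highest in KO4, Atp2a2, Casq2 and Srl are lowest in KO4 and KO5, and the adipocyte sum stands apart in KO5 (1129 CPM).

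Across the 9 mice, which share library and scaling, 4 pairs of genes were correlated in log2 CPM. Pearson's r was -0.58 for Pln with Casq2 (rho -0.42, exact permutation p = 0.101 and p = 0.270), -0.23 for Pln with the slow myosin Myh7 (rho -0.18, exact p = 0.550 and p = 0.644), 0.54 for Atp2a2 with Myh7 (rho 0.38, exact p = 0.134 and p = 0.312) and -0.43 for Pvalb with Atp2a1 (rho -0.25, exact p = 0.244 and p = 0.521). The adjusted p was at least 0.268 for r and at least 0.625 for rho. KO4 and KO5 were the mice farthest from the median of the first gene in each pair, and without them r was -0.22, -0.27, 0.44 and -0.02. None of the 4 relations passed, and the pairs with Casq2 and with Atp2a1 weakened without these mice.

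The genes whose level over the 9 mice was most like that of a member are given by Pearson's r of log2 CPM, as a description. Atp2a1 was followed most closely by the sarcomere gene Mypn (0.98), the non-coding Usp46os2 (0.97) and Klhl41 (0.97), which acts in sarcomere upkeep. The closest to Atp2a2 were Zfp106 (0.99), the slow myosin-binding protein gene Mybpc1 (0.98) and Vcl, vinculin (0.97), and Mybpc1 (0.98), Dlst (0.98) and Zfp568 (0.98) were closest to Srl. For Pvalb they were Sumf2 (0.97), Apold1 (0.95) and Gm26759 (0.94), and for Pln Gm37376 (0.98), Unc13a (0.97) and D330041H03Rik (0.97). Casq1 was most like Ermap (0.97), Ciao1 (0.95) and Rras2 (0.95), and Casq2 most like Gm6263 (0.98), Rnf6 (0.96) and Acsl3 (0.96). Mrln was most like Phpt1 (0.97), the respiratory chain gene Ndufs7 (0.96) and Macrod1 (0.96), Sln like Ms4a4a (0.94), Gm41183 (0.94) and Abracl (0.93), and Atp2a3 like Nckap5 (0.95), Eif4a1 (0.95) and Dennd1c (0.95).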

How the data were processed

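The raw counts were deposited by the authors as reads per Ensembl gene for 9 mice: reads were mapped to mm10 with HISAT2, concordant reads kept and counted with featureCounts, without normalization. The annotation release, and how strand and multi-mapping reads were handled, stand in none of the sources used here. Overlapping genes are therefore uncertain. Mice were grouped by the genotype in their labels. Of 55471 genes, 16836 had no count. Symbols, positions and exon lengths came from GENCODE M21 (GRCm38), promoters from RefSeq, whose table matched 7 of the 10 genes.

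Fits ran over all genes passing filterByExpr (minimum count 10, total 15), in edgeR 4.0.16 (R 4.3.3) with TMM scaling and a robust quasi-likelihood test, 2-sided, with Benjamini-Hochberg adjustment. They used KO1, KO3, KO5 and WT1 to WT4, the study's choice. CPM used TMM factors of all 9 mice, and log2 CPM a prior count of 2. Ratios and single genes had exact permutation tests over all 35 splits (126 for 9 mice), 2-sided. Intervals are 95% intervals of the model. Each mouse is 1 library, and p-values measure the spread between mice. Alternatives were all 9 mice, other filters, scalings and exon length, DESeq2 1.42.0, limma-voom 3.58.1, a Y-linked covariate, the replicate number as a block and leaving out each mouse. Named genes were all members, genes of the related-role and fibre lists with p below 0.05 (up to 3 per direction), those of the correlated pairs and the 3 genes most like each member. Outside this rule, some markers of other lists, such as Ckm, Acta1, Myod1 and those of heart, were named to describe the tissue. The fits were tested on simulated data. Members and lists were chosen with earlier results of these data known. Figures were drawn with matplotlib 3.10.9.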

Additional observations from a re-analysis of the deposited data

Results flagged for a closer look

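A gap to the nearest mouse that was large for the range of the group was sought in 32 groups of 4 or 5 mice, where chance gives about 5% of groups, and was found in 2. In Pln, WT2 was at 1.18 CPM, with the other 3 Shank3(+/+) mice between 0.708 and 0.751 CPM. In the ratio of Atp2a1 to Atp2a2 per kb, KO5 was at 14.6, with the other 4 Shank3Δ11(-/-) mice between 8.91 and 10.35.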

How the results depend on the processing

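Pvalb, Pln, Atp2a2 and Casq2 kept their direction in all 30 other settings each, with log2 fold changes of 0.54 to 1.59, 0.43 to 0.93, -0.43 to -0.05 and -0.36 to -0.08, and none of the 10 genes was called in any. Sign changes were among small values. Sln was -0.047 in all 9 mice, -0.049 there with DESeq2, -0.041 with the Y-linked covariate and -0.074 with limma-voom. When each mouse was left out, of 7 or of 9, log2 fold changes ranged from -0.036 to 0.14 for Atp2a1, -0.078 to 0.27 for Atp2a3, -0.043 to 0.10 for Casq1, -0.18 to 0.10 for Mrln, -0.15 to 0.23 for Sln and -0.25 to 0.071 for Srl, and the Sln to Atp2a1 difference from -0.28 to 0.19. The labels name no litter or batch behind the replicate numbers. Deviations of same-numbered mice correlated at 0.373, 0.0524, 0.357 and 0.101 over 9 mice (0.384 and 0.35 for the 2 pairs among the 7), and as 1 of the 4 was under 0.1 the numbers were not taken as pairs, although 5 of 8 mice correlated best with their own number. With the replicate number as a block, Pvalb was 0.61 (edgeR adjusted p = 0.319), Sln 0.30 and Pln 0.72 (adjusted p = 0.998 for both), the 3 with an unadjusted p below 0.05, Atp2a1 was -0.0032, Atp2a3 -0.13, Mrln 0.15 and Srl 0.023, the ratio differences were -0.56 for Mrln to Pln and 0.62 for Pvalb to Atp2a1 (both with an unadjusted limma p below 0.05) and 0.31 for Sln to Atp2a1 (0.16 for Atp2a1 to Atp2a2, 0.17 for Casq1 to Casq2 and -0.41 for Sln to Pln), and the table had 844 genes with p below 0.05 and 9 called. In all 9 mice with the block, where KO5 again has no partner, Casq1 was -0.0084 and 2 genes were called. There 2 genes of the related-role and fibre lists had p below 0.05 (452 of all genes). Pln, at 0.61, also had an unadjusted p below 0.05 with at least 10 counts in every mouse (adjusted p = 1.00). Genes called were 6 with DESeq2, 7 with it in 9 mice, 1 with no filter (972 genes with p below 0.05, more genes tested) and 0 to 15 when each mouse was left out (224 without KO5 to 968 without KO1 with p below 0.05). Genes of the related-role and fibre lists with p below 0.05 were 3 in all 9 mice (442 of all genes), 3 there with DESeq2 (442), with limma-voom (428) or with the covariate (469), and 0 to 12 when each mouse was left out (224 of all genes without KO5, 794 without KO3). The log2 Mrln to Pln ratio was 7.44 with the longest transcript, not 6.29. Atp2a2 with Myh7 had r 0.78 in the 7 mice (exact permutation p = 0.0393), Pvalb with Atp2a1 0.11 there, and Pln with Casq2 -0.71 with total counts alone (exact permutation p = 0.0333). The cause of these shifts was not tested. The settings with all 9 mice beyond the plain fit were chosen after seeing the data. Depth limits Pln most, at 20 to 90 counts per mouse.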
